A study of Mus musculus with 18 samples.

Results

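The cytosolic ribosomal protein genes were followed in CD69+ thymocytes sorted into an MHC I low and an MHC I high fraction, from mice of 3 genotypes (WT, Hoil ΔCd4, Sharpin cpdm). Members were the protein-coding genes whose symbol starts with Rpl or Rps followed directly by a digit, without the Rps6k kinases and the -ps pseudogenes, and with at least 0.5 CPM (counts scaled to a library of 1e6) in at least 3 samples. Of 85 genes with such a symbol, 83 passed and 2 (Rpl3l and Rpl10l) did not, and these 83 were part of 12798 genes tested. RNA was sequenced from 18 samples, 1 of each fraction from each of 3 mice per genotype. CD69 appears on thymocytes once their antigen receptor has signalled, and cells gain MHC I on the surface while they mature after selection. Hoil ΔCd4 mice carry Cd4Cre and loxP-flanked Rbck1, so that HOIL-1 is lost in the T-cell lineage alone. The Sharpin cpdm allele removes SHARPIN throughout the body and not only from T cells. Inflamed skin develops with age in these mice, and the study states that they were analysed before it became extensive. Sharpin cpdm mice come from C57BL/Ka stock crossed to C57BL/6, so that strain and mutation cannot be told apart. WT mice carried neither change. The age of the mice used for sequencing was not given in the sources used here. The sort removed dead cells and cells with CD25, CD44 or markers of B, NK, myeloid or γδ T cells in every group. HOIL-1 and SHARPIN belong to LUBAC, the complex that joins ubiquitin into linear chains. The study states that cells without SHARPIN keep a substantial part of this activity. The comparison of genotypes asks what the loss of either protein does to gene expression after positive selection.

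The cytosolic ribosome of mammals has a small subunit, which decodes mRNA, and a large subunit, which joins amino acids, and nearly every protein is present in a single copy per ribosome. Most of the genes behave as housekeeping genes, and their mRNAs begin with a run of pyrimidines (the 5′ terminal oligopyrimidine, or TOP, motif) through which mTOR sets their translation. Some proteins also act outside the ribosome: Rpl5, Rpl11 and Rpl23 bind MDM2, and Rps3 can bind NF-κB. Rpl22 is needed for the development of αβ T cells.

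The starts of 8 members are shown because they include genes that rose and genes that fell between the fractions. RefSeq promoter sequences (GRCm38.p6) were matched for 64 of the 83 members. Each line gives 15 bases before the annotated start and 15 from the start on, and capitals mark every unbroken run of at least 8 C or T.
Rpl7a (chr2:26910792-26910821, + strand): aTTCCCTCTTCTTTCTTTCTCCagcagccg
Rpl27a (chr7:109519180-109519209, + strand): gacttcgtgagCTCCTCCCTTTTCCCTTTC
Rps15a (chr7:118116133-118116162, − strand): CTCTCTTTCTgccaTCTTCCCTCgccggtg
Rpl15 (chr14:18270972-18271001, − strand): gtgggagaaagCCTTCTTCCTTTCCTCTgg
Rpl12 (chr2:32961697-32961726, + strand): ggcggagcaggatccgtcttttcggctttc
Rpl10 (chrX:74270801-74270830, + strand): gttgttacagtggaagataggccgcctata
Rpl7l1 (chr17:46782642-46782671, − strand): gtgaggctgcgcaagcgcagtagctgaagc
Rps19bp1 (chr15:80264292-80264321, − strand): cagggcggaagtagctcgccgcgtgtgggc
Rpl7a held the longest of these runs, 21 bases. Such a run, read on the gene's own strand, lay in 29 of the 75 member starts (38.7%), against 12% of all 32847 starts. Of the members called higher in the MHC I high fraction of WT thymocytes, 21 of 45 with a sequence had a run, as did 0 of 7 called lower and 7 of 12 not called. Of those called lower, Rpl7l1 and Rps19bp1 are not subunits of the ribosome, and Rpl12 and Rps12 had runs of 7 bases, just under the limit. The members shown that rose in WT all have a run, while 21 of all 45 had one. The median WT fraction change was 0.53 (log2) for members with a run and 0.48 for those without. The 8 genes were chosen after their values were seen, and annotated starts need not be the starts used in thymocytes.

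Not all members are subunits of the ribosome. Rps19bp1 encodes a binding partner of Rps19, and Rpl7l1 a nucleolar relative of Rpl7. Another 8 members were paralogs or retrocopies of core genes (Rpl22l1, Rpl36al, Rpl39l, Rps27l, Rps27rt, Rpl32l, Rpl37rt and Rps23rg1), which left 73 core genes, 43 of the large and 30 of the small subunit. Rpl32l, Rpl37rt and Rps23rg1 were put among the copies after values were seen.

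Levels per length differed widely, although nearly all the proteins are present once per ribosome. The highest mean over all samples was that of Rpl8 (chromosome 15, 76904071 to 76906318, mm10), a large subunit protein at the peptidyl transferase centre, at 1059 RPKM (reads per kilobase of the deposited gene length per 1e6 counts). Rps15 at 729.6 RPKM, Rpl4 at 509.9 RPKM and Rpl32 at 459 RPKM were also among the 5 highest. Rpl39l, a paralog, had the lowest at 0.7037 RPKM. Rpl39 had 1.244 RPKM, X-linked Rpl36a had 7.279 RPKM, Rps23 had 8.185 RPKM and Rpl38 had 9.008 RPKM. The last 4 are core subunits, so their counts lay far under those of their partners. Processed copies are a known difficulty for these genes. A search of 75-base windows of each transcript against those of other genes, with up to 2 mismatches, found at least 50% of windows shared in 50 of the 80 members searched here and fewer in 30. Level per length did not follow that share across the 80 members (Pearson r = 0.121, Spearman rho = 0.0936). Genes are not independent replicates, and the authors' setting for reads with several matches is not given in the sources used here.

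As deposited counts per sample, the members held a small part of each library. How reads with several matches were counted is not given in the sources used here, so these shares need not equal the share of RNA. They took 0.7295, 0.7504 and 0.764% of all counts in WT MHC I low thymocytes and 1.124, 1.134 and 1.071% in the MHC I high fraction. Hoil ΔCd4 thymocytes gave 0.784, 0.711 and 0.7394% in the MHC I low fraction and 1.021, 1.008 and 1.024% in the MHC I high. The Sharpin cpdm values were 0.7648, 0.7869 and 0.8452% for MHC I low and 1.042, 1.118 and 1.052% for MHC I high. Every MHC I high sample lay above every MHC I low sample of any genotype. The Hoil ΔCd4 MHC I high samples lay below all WT and all Sharpin cpdm MHC I high samples, and the Sharpin cpdm MHC I low samples lay above all WT MHC I low samples, by 0.7648 against 0.764% at the closest. The other pairs of genotypes overlapped within a fraction. The ratio of the 2 fractions within a mouse was 1.541, 1.511 and 1.402 for WT mice, 1.302, 1.418 and 1.385 for the Hoil ΔCd4 mice and 1.362, 1.421 and 1.245 for the Sharpin cpdm mice.

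**Figure D1:**
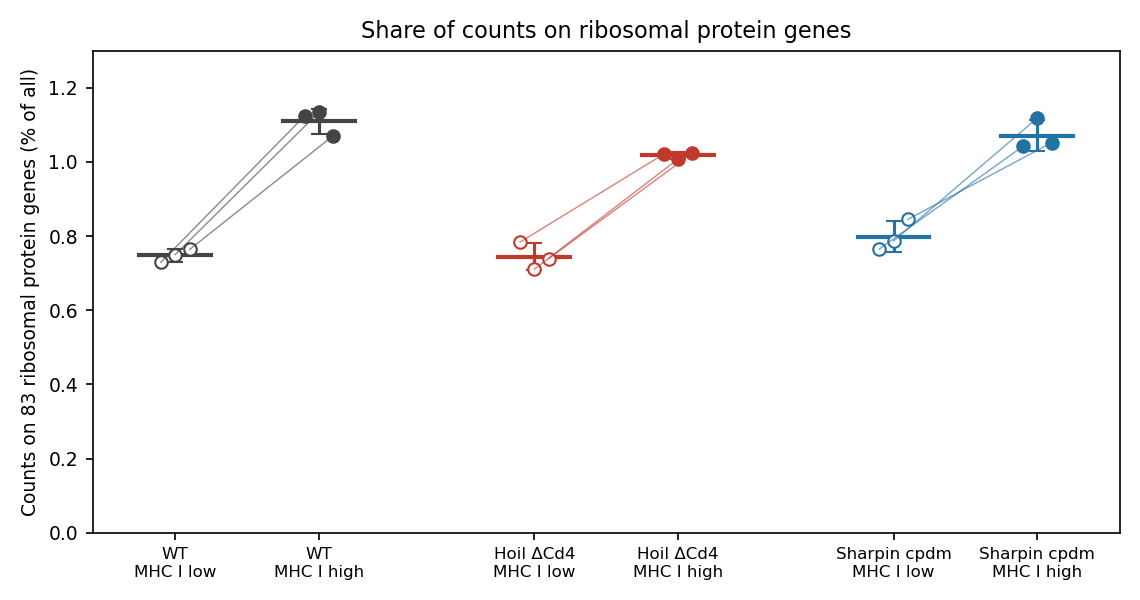
Percentage of all gene counts in each sample that fell on the 83 members (y axis, from 0) by genotype and fraction (x axis). Open points are MHC I low and filled points MHC I high samples, thin lines join the 2 fractions of a mouse, and bars show mean ± SD (n = 3). Shares run from 0.711 to 0.8452% in MHC I low and from 1.008 to 1.134% in MHC I high samples.

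Libraries held 10577966 to 16266128 counts, with a median of 13979793. Rbck1 was at 217.2 to 267.6 CPM in WT samples and far lower in Hoil ΔCd4 samples, as labelled. It measured 0.2714 to 0.7785 CPM in their MHC I low and 3.72 to 8.941 CPM in their MHC I high fraction. That rise between the Hoil ΔCd4 fractions was called (log2 change 3.32 ± 0.27 SE, limma adjusted p = 2.67e-07). Sharpin was lower in Sharpin cpdm samples (log2 difference −0.36 ± 0.07 SE in MHC I low, limma adjusted p = 0.000521). B-cell markers summed to at most 7.778 CPM and myeloid markers to at most 15.28 CPM in any sample. Ms4a1, Csf1r and S100a8 were at or near 0, while others were counted, such as Itgam at 1.928 to 7.987 CPM. Itgam and Fcer1g were called higher in the MHC I high fraction of all 3 genotypes, and Cd79a in WT and Sharpin cpdm mice. Lyz2 was called lower in that fraction of WT mice, and higher there in Sharpin cpdm than in WT mice. All 12 T-cell identity genes were counted. Xist exceeded 10 CPM in 3 of 3 WT, 2 of 3 Hoil ΔCd4 and 1 of 3 Sharpin cpdm mice, so the sexes were not balanced over genotypes, and a fit with Xist as a covariate was among the alternatives. In bulk samples, fewer cells of a type and less RNA per cell cannot be told apart.

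Between the fractions of WT mice, 61 of 83 members rose, 7 fell and 15 were not called at an adjusted p under 0.05. Among all genes tested, 27.5% were called higher and 26.8% lower (54.4% in either direction). The median log2 change of the members was 0.49, a fold of 1.4, and that of all genes was near 0 (−0.004). For 61 members all 3 MHC I high samples lay above all 3 MHC I low samples (73.5% of members, 26.5% of all genes). Small subunit core genes rose in 25 of 30 cases (median 0.63) and large subunit core genes in 30 of 43 (median 0.45).

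The riser with the smallest p was Rps20 (chromosome 4, 3831584 to 3835655), a protein of the small subunit head. It measured 175, 175.3 and 176.3 CPM in WT MHC I low and 310.7, 296.5 and 294.2 CPM in WT MHC I high thymocytes, groups that did not overlap. Its log2 change was 0.77 ± 0.04 (SE, limma adjusted p = 7.36e-16). Rps14, a protein of the small subunit platform, went from 200.9, 201.7 and 189.4 CPM to 341.2, 354 and 343.1 CPM and had the largest change of any member in WT, 0.81 ± 0.05. Both genes rose in both mutants as well. In Hoil ΔCd4 thymocytes the log2 changes were 0.64 for Rps20 and 0.62 for Rps14, and in Sharpin cpdm thymocytes they were 0.64 and 0.60. The members with the smallest p in the mutants included Rpl4, which lines the exit tunnel, at 0.58 ± 0.05 in Hoil ΔCd4 (adjusted p = 1.75e-10), and Rps15a at 0.71 ± 0.05 in Sharpin cpdm (adjusted p = 4.56e-13).

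The members known from T-cell biology rose too. Rps3, of the mRNA entry site, went from 582.1, 629.1 and 621.8 CPM to 989.2, 1011 and 937.4 CPM in WT, with a log2 change of 0.66 ± 0.04 (adjusted p = 5.41e-14). Rpl22 went from 137.3, 140.1 and 141.2 CPM to 201.2, 213.1 and 201.8 CPM (0.55 ± 0.04, adjusted p = 7.43e-12). Its paralog Rpl22l1, which can replace it in the ribosome, went from 26.12, 28.01 and 25.89 CPM to 44.29, 41.85 and 35.51 CPM (0.54 ± 0.07, adjusted p = 2.62e-07). The pair thus rose by a like amount in WT, and both also rose in thymocytes of Hoil ΔCd4 (0.48 and 0.49) and Sharpin cpdm mice (0.41 and 0.59). Rps6, the substrate of S6 kinase, rose in WT (0.39 ± 0.07, adjusted p = 4.85e-05) and Sharpin cpdm (0.45 ± 0.08, adjusted p = 1.4e-05). In Hoil ΔCd4 its log2 difference was 0.21 ± 0.09 (adjusted p = 0.0671).

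The MDM2-binding members did not move together. Rpl5 (0.53 ± 0.07) and Rpl23 (0.66 ± 0.05) rose in WT, and both rose in the mutants (0.45 and 0.51 for Hoil ΔCd4, 0.34 and 0.52 for Sharpin cpdm). Rpl11, which shares the 5S particle with Rpl5, was at 12.36, 11.45 and 11.81 CPM in WT MHC I low and at 10.02, 11.36 and 11.59 CPM in MHC I high thymocytes, overlapping groups with a difference of −0.10 ± 0.10 (adjusted p = 0.407). It was not called in either mutant. Of 7 members at the exit tunnel 4 rose and none fell in WT, and of 6 at the mRNA path 5 rose and none fell. Of 19 whose human counterparts are mutated in Diamond-Blackfan anaemia 15 rose and 1 fell in WT. Over all 83 members 61 rose and 7 fell, and 27.5% of all genes rose and 26.8% fell.

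The X-linked members divided. Rps4x rose in WT (0.52 ± 0.05, adjusted p = 3.93e-10), Hoil ΔCd4 (0.48) and Sharpin cpdm (0.36). Rpl10, which is needed for the subunits to join, was at 33.36, 34.73 and 33.47 CPM in WT MHC I low and at 33.95, 27.98 and 28.07 CPM in MHC I high thymocytes. The groups overlapped through mouse 1, and the log2 change was −0.20 ± 0.08 (adjusted p = 0.0273). This call did not hold when WT mouse 2 was left out (−0.114, adjusted p = 0.315) or WT mouse 3 (−0.143, adjusted p = 0.307) and with edgeR (adjusted p = 0.116), DESeq2 (adjusted p = 0.139), no filter (adjusted p = 0.0764) or no quality weights (adjusted p = 0.0693). Rpl36a was not called in any genotype. Rpl39 was called lower in Hoil ΔCd4 alone, where it had 11, 10 and 9 counts in MHC I low and 3, 2 and 2 counts in MHC I high libraries. The ratio of these counts at equal depth was 0.254 (95% exact interval 0.0942 to 0.591, counting error only). The call was lost without Hoil ΔCd4 mouse 2 (adjusted p = 0.0752), and in WT the ratio was 0.795 (0.396 to 1.57) from 22 and 17 counts.

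The members that fell were few. Rps12 and Rps13, of the small subunit, and Rps19bp1 fell in all 3 genotypes. Rps12 measured 24.33, 25.07 and 22.37 CPM in WT MHC I low and 21.1, 19.7 and 21.17 CPM in MHC I high thymocytes without overlap (−0.19 ± 0.08, adjusted p = 0.0348), and its change was −0.34 for Hoil ΔCd4 and −0.27 for Sharpin cpdm mice. Rps13 changed by −0.38 ± 0.14 in WT (adjusted p = 0.0286), by −0.55 for Hoil ΔCd4 and by −0.63 for Sharpin cpdm mice. Its WT samples overlapped, at 13.51 to 15.48 CPM and 9.792 to 14.87 CPM. Rps12 shared 83.3%, Rps13 87.8%, Rpl10 91.9% and Rpl27 62.4% of their windows with other genes, so their counts are uncertain. The same holds for members that rose, such as Rps6 (84.1%), Rps4x (79.8%), Rpl22l1 (64.3%) and Rps14 (62.3%), while Rps20 shared 7.7% and Rps3 7.5%. Rps19bp1 went from 15.88, 17.4 and 18.69 CPM to 14.47, 13.24 and 12.83 CPM in WT (−0.37 ± 0.09, adjusted p = 0.000911), a call lost without WT mouse 3 (adjusted p = 0.102). Its call in Sharpin cpdm (−0.25, adjusted p = 0.0297) was lost in 8 of 19 alternatives, edgeR (adjusted p = 0.0745) and the omission of any 1 of the 3 Sharpin cpdm mice among them. Rpl7l1 fell in WT (−0.26 ± 0.06, adjusted p = 0.000539) and Sharpin cpdm (−0.26 ± 0.06, adjusted p = 0.000692), and in Hoil ΔCd4 its difference was −0.03. Without WT mouse 3 the WT difference of Rpl7l1 was no longer called (adjusted p = 0.193). Rpl27, of the large subunit, measured 10.76, 11.45 and 11.18 CPM in WT MHC I low and 7.113, 7.591 and 9.31 CPM in MHC I high thymocytes, without overlap (−0.40, adjusted p = 0.0102). In Sharpin cpdm mice it measured 15.48, 10.59 and 13.64 and 9.218, 6.356 and 8.35 CPM, without overlap (−0.75, adjusted p = 2.61e-05). Both calls held under all 19 alternatives. Rpl15 fell in Sharpin cpdm mice (−0.30 ± 0.07, adjusted p = 0.00064), as did Rpl10 (−0.36 ± 0.08, adjusted p = 0.000266), whose call was lost without Sharpin cpdm mouse 2 (adjusted p = 0.0913).

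Paralogs and retrocopies were called higher in 6 of 8 cases in WT and none was called lower, where 61 of all 83 members and 27.5% of all genes were called higher. Rpl36al rose by 0.28 ± 0.07 in WT, by 0.23 for Hoil ΔCd4 and by 0.21 for Sharpin cpdm mice. The call in Hoil ΔCd4 was lost with DESeq2 (adjusted p = 0.0583) and without mouse 2 or 3, and that in Sharpin cpdm without mouse 1 or 2. Rps27rt, a retrocopy that shares 91% of its windows with other genes, Rps27 being the closest, rose in WT (0.41 ± 0.13, adjusted p = 0.0198) and Sharpin cpdm (0.56 ± 0.14, adjusted p = 0.00413). Its parent Rps27 was not called in WT (−0.10) and fell in Sharpin cpdm (−0.45 ± 0.12, adjusted p = 0.00187), and reads of these 2 genes cannot be kept apart with certainty. Without a replicate block, or without WT mouse 1 or 2, Rps27rt was no longer called in WT (adjusted p = 0.055, 0.0861 and 0.068). Rps27l, a p53-inducible paralog, was not called between fractions in any genotype (0.08, 0.17 and 0.13). Rpl39l had counts too low for a statement.

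**Figure D2:**
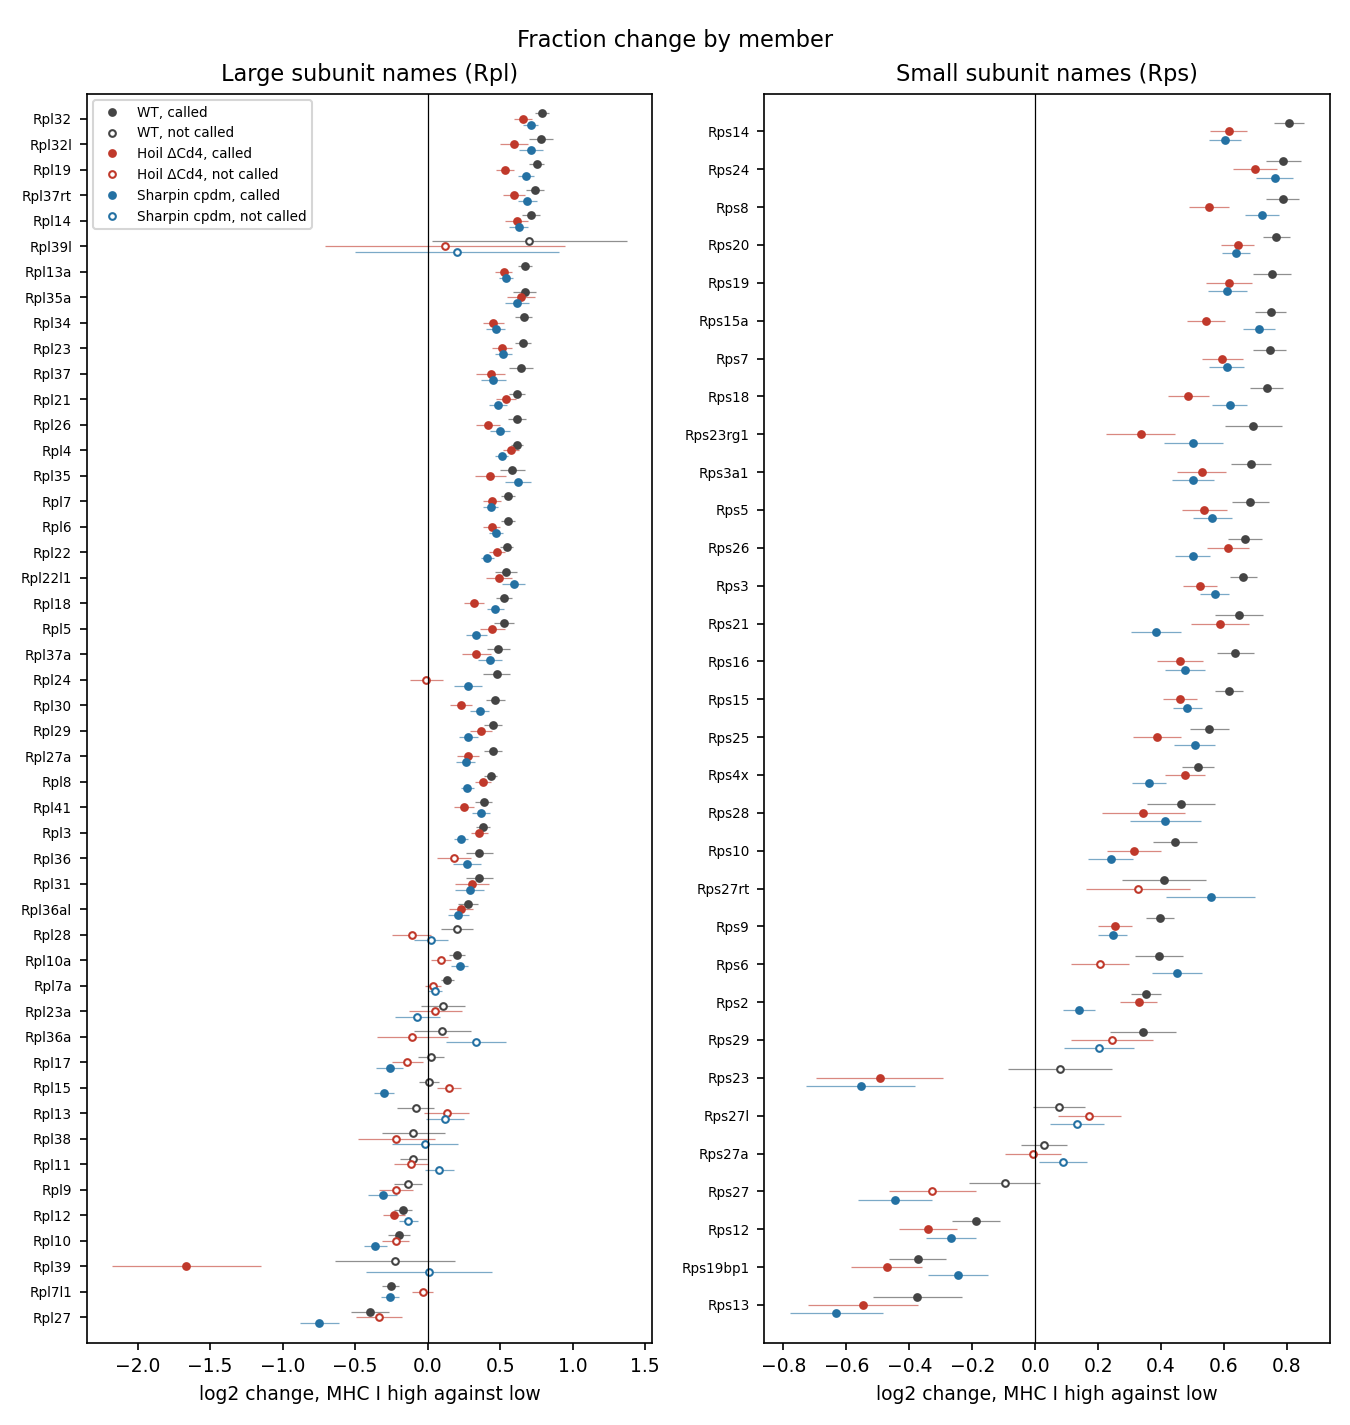
log2 change in MHC I high against MHC I low thymocytes (x axis) with its standard error for 80 of the 83 members, with genes named Rpl (left) and Rps (right), ordered by the WT change. Colours are genotypes, filled points passed an adjusted p of 0.05 and open points did not. Most points lie right of 0, with 61 of the 83 members called higher for WT, 54 for Hoil ΔCd4 and 59 for Sharpin cpdm mice.

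In the mutants the fractions differed in the same way. In Hoil ΔCd4 mice 54 members rose and 6 fell (23.5% and 21.7% of all genes, 45.3% in either direction), with a median of 0.34. In Sharpin cpdm mice 59 rose and 11 fell (27.2% and 27.4% of all genes, 54.6% in either direction), with a median of 0.37. The members called higher in all 3 genotypes numbered 54, against 18.1% of all genes, and those called lower in all 3 numbered 3, against 16.2% of all genes. No member was called in opposite directions. The changes of the 83 members in WT and in a mutant, which come from different samples, had a Spearman rho of 0.92 with Hoil ΔCd4 and of 0.92 with Sharpin cpdm. Every mouse had more members higher in its MHC I high fraction than lower, from 62 of 83 in Hoil ΔCd4 mouse 2 to 73 of 83 in WT mouse 1. Beside these values, all 27 cell cycle genes rose in each genotype. Their summed level was 753 to 836.2 CPM in WT MHC I low and 1854 to 1912 CPM in WT MHC I high samples. Mature single-positive markers rose in 9 of 10 cases and fell in 1 (Il7r) in each genotype. That list holds H2-K1, H2-D1 and B2m, which encode parts of MHC I, so its count is not independent of the sort. Of 10 markers of CD4+CD8+ double-positive thymocytes 2 rose and 6 fell in WT mice. For Hoil ΔCd4 mice 4 rose and 3 fell, and for Sharpin cpdm mice 5 rose and 2 fell. The part of these lists in the result was not tested.

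How much a member changed went with its level. All 28 members with a mean of at least 100 CPM rose in WT, as did 28 of 34 between 20 and 100 CPM and 5 of 21 under 20 CPM. The median changes of these level groups were 0.66, 0.51 and 0.08, and the limits between them were set after the data were seen. In Hoil ΔCd4 the counts were 27 of 28, 24 of 34 and 3 of 21, and in Sharpin cpdm 27 of 28, 28 of 34 and 4 of 21. Across the 83 members the WT change and the log2 mean CPM had a Pearson r of 0.544 and a Spearman rho of 0.587. The change followed the share of windows less closely (rho = −0.172, 80 members), and 21 of 30 members sharing under 50% of their windows rose in WT, as did 37 of 50 sharing more.

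**Figure D3:**
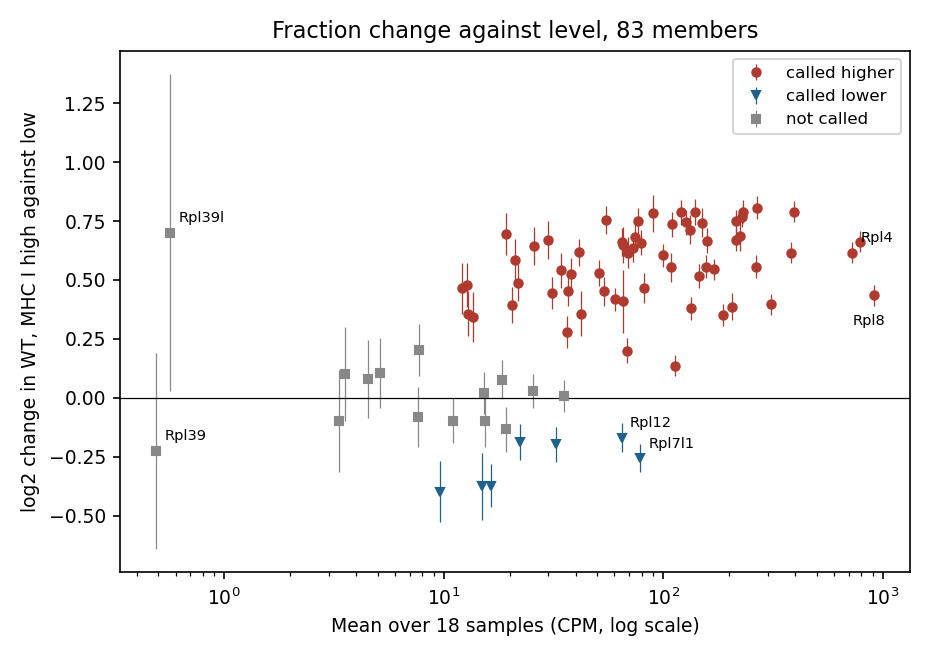
log2 change in WT thymocytes, MHC I high against low, with its standard error (y axis) against the mean level over 18 samples (x axis, CPM, log scale) for the 83 members. Red circles were called higher, blue triangles lower and grey squares were not called. All 28 members from 100 CPM up were called higher, and 5 of 21 under 20 CPM were.

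Other parts of the translation machinery were compared with fixed lists. The 7 ribosomal proteins whose names fall outside the rule all rose in WT (median 0.43), among them Rplp0 of the stalk, from 584 ± 10.78 to 836.4 ± 40.31 CPM (SD, n = 3; log2 change 0.50 ± 0.05 SE, adjusted p = 2.44e-10). They rose in 7 of 7 cases in Hoil ΔCd4 and 6 of 7 in Sharpin cpdm. Of 17 translation factors and other genes with TOP mRNAs 13 rose and 1 fell in WT. Tpt1 rose from 336.2 ± 23.27 to 537.9 ± 19.23 CPM (0.70 ± 0.05, adjusted p = 3.34e-14), Eef1b2, an elongation factor, by 0.46 ± 0.05, and Hnrnpa1 fell (−0.35 ± 0.06, adjusted p = 1.6e-05). In the list of 81 ribosome biogenesis factors 8 rose and 41 fell in WT (median −0.15), where 27.5% of all genes rose and 26.8% fell. For Hoil ΔCd4 10 rose and 21 fell (median −0.08), the number that fell being near the 21.7% of all genes, and for Sharpin cpdm mice 13 rose and 30 fell (median −0.09; 27.4% of all genes fell). Rrp1, of rRNA processing, fell from 337 ± 22.61 to 263.4 ± 18.86 CPM (−0.34 ± 0.05, adjusted p = 1.41e-07), and Nat10, the rRNA acetyltransferase, fell by 0.33 on the log2 scale, while Imp3 of the small subunit processome rose by 0.37. Of 29 genes of mTOR signalling and TOP control 7 rose and 10 fell in WT (27.5% and 26.8% of all genes), with Sesn3 up (0.80 ± 0.06) and Rheb down (−0.42 ± 0.05). Of 10 tested genes of the Myc network 4 rose and 4 fell in WT, led by Mxd3 (2.36) and Mxd1 (1.31) among those that rose. The log2 change of Myc itself was 0.28.

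In MHC I low thymocytes, no member was called different between Hoil ΔCd4 and WT mice. limma called 0 of 83 members and 126 of all genes (0.985%, with 0.422% higher and 0.563% lower), edgeR and DESeq2 also called 0 members, and 1 member had an unadjusted p under 0.05. The median log2 difference was 0.02, with 48 members above 0 and 35 below. That 1 member, Rps6, was at 17.35, 16.37 and 17.05 CPM in WT and 21.71, 18.34 and 19.2 CPM in Hoil ΔCd4 samples, with a difference of 0.22 ± 0.10 (adjusted p = 0.398). Myc, a driver of ribosomal gene transcription, was lower in Hoil ΔCd4 MHC I low thymocytes (−0.43 ± 0.09, adjusted p = 0.0136), at 57.69 ± 1.699 against 78.33 ± 3.341 CPM (SD, n = 3).

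In MHC I high thymocytes, 4 members were lower in Hoil ΔCd4 than in WT mice (Rps20, Rps16 and Rps15a of the small subunit among them) and 1 member was higher (Rpl7l1), 6.02% of members against 6.65% of all genes (3.84% higher and 2.81% lower), so that the share of calls was near the background. The direction was less even than over all genes: 73 of 83 members lay below 0, with a median of −0.12, while 49.9% of all genes lay above 0. For 41 members all 3 Hoil ΔCd4 samples lay below all 3 WT samples, against 9.45% of all genes, and for 0 members above. These counts are a description and carry no test. Rps20 measured 310.7, 296.5 and 294.2 CPM in WT and 265, 245.6 and 264 CPM in Hoil ΔCd4 samples (−0.21 ± 0.05, adjusted p = 0.00964). Rps16 measured 101.6, 89.4 and 85.3 against 70.53, 74.1 and 78.43 CPM (−0.26 ± 0.07, adjusted p = 0.0249). The groups overlapped for neither gene. Rpl7l1 measured 66.36, 79.24 and 66.13 against 72.58, 83.19 and 86.31 CPM and overlapped (0.26 ± 0.07, adjusted p = 0.0238), and was not called with edgeR (adjusted p = 0.25), DESeq2 (adjusted p = 0.277), without quality weights (adjusted p = 0.226) or without WT mouse 1, WT mouse 3, Hoil ΔCd4 mouse 2 or Hoil ΔCd4 mouse 3 (adjusted p up to 0.523). The calls rested on few mice: 0 members were called without WT mouse 1, WT mouse 3 or Hoil ΔCd4 mouse 2, 2 without Hoil ΔCd4 mouse 3 and 8 without WT mouse 2. The median stayed between −0.199 and −0.118 in these and all other alternatives.

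Other lists moved beside the members in this comparison. Of 27 cell cycle genes 25 were higher in Hoil ΔCd4 MHC I high thymocytes, with a summed level of 2513 to 3062 CPM against 1854 to 1912 CPM in WT. Of 10 markers of CD4+CD8+ double-positive thymocytes 6 were higher, summing to 895.1 to 1201 CPM against 809.1 to 921 CPM. Cd8b1 and Themis gave the largest parts of these sums. Mature single-positive markers summed to 6111 to 6301 CPM against 6488 to 7041 CPM, with 1 of 10 lower (Il7r, −0.18 ± 0.05, adjusted p = 0.0235). A large part of these sums came from the MHC I genes H2-K1, H2-D1 and B2m. H2-K1 alone was at 1697.52 to 1929.676 CPM in Hoil ΔCd4 and 1946.56 to 1964.515 CPM in WT samples and was not called. The part of these lists in the lower ribosomal protein values was not tested. The 7 ribosomal proteins of other names and the 17 TOP genes were not called (medians −0.03 and −0.03), nor were any of the 81 biogenesis factors.

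In MHC I low thymocytes, 8 members were higher in Sharpin cpdm than in WT mice and 0 were lower, 9.64% of members against 5.31% of all genes called higher, 6.92% called lower and 12.2% called in either direction. The median was 0.10, and 66 of 83 members lay above 0. All 3 Sharpin cpdm samples lay above all 3 WT samples for 26 members (31.3%, against 15.7% of all genes). Rpl7a, of the large subunit, measured 98.47, 105.8 and 106 CPM in WT and 126.4, 119.7 and 127.2 CPM in Sharpin cpdm samples (0.26 ± 0.05, adjusted p = 0.00152). Rps27 measured 12.23, 15.67 and 13.69 against 21.76, 19.28 and 24.51 CPM (0.64 ± 0.14, adjusted p = 0.00189). Rpl13a measured 161.1, 169.8 and 157.1 against 194.5, 184.9 and 201 CPM (0.25 ± 0.06, adjusted p = 0.00518). None of these groups overlapped, and the 3 calls held under all 18 alternatives. Rpl15, Rpl3, Rps23 and Rps13 were among the other 5. Without WT mouse 1 the number called was 4 and without Sharpin cpdm mouse 3 it was 5. Rpl7a shared 91.9% and Rps27 98.5% of their windows with other genes, so their counts are uncertain. Of the neighbouring lists, Fau, a ubiquitin-like fusion with a small subunit protein, was higher (0.39 ± 0.09, adjusted p = 0.00499). Of 81 biogenesis factors 6 were lower, near the 6.92% of all genes, among them Gnl3 (−0.44 ± 0.07) and Mdn1 (−0.40 ± 0.06). Of 12 T-cell identity genes 7 were higher and 1 (Thy1, −0.24) was lower. Of 10 mature single-positive markers 3 were higher, Ccr7 (0.36) and Il7r (0.27) among them, and of 10 double-positive markers 2 were lower (Rag2, −1.04, and Themis, −0.19). Of 27 cell cycle genes 5 were lower and 2 higher. The part of these lists in the result was not tested.

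In the MHC I high fraction of Sharpin cpdm mice 1 member was higher and 1 lower than in WT, 2.41% of members against 8.62% of all genes (4.15% higher and 4.47% lower), and the median was near 0 (−0.003). Rps3a1, of the small subunit platform, measured 323.2, 300 and 287.4 CPM in WT and 270.1, 221.3 and 200.7 CPM in Sharpin cpdm samples, without overlap (−0.39 ± 0.07, adjusted p = 0.000536). This call held under all 18 alternatives. In the MHC I low fraction Rps3a1 measured 191.1, 183.9 and 180.3 against 184, 147.2 and 157.3 CPM, overlapping through Sharpin cpdm mouse 1, and was not called. Rps3a1 shared 79.8% of its windows with other genes, the closest being Rps3a3, and background strain was not separable from genotype. Rpl7a was higher, at 117.1, 112.7 and 111.9 against 131.9, 130 and 121 CPM (0.18 ± 0.05, adjusted p = 0.0203). The Rpl7a call was lost with edgeR (adjusted p = 0.0931), DESeq2 (adjusted p = 0.065), without quality weights (adjusted p = 0.12) and without WT mouse 1, 2 or 3 or Sharpin cpdm mouse 1 or 2 (adjusted p up to 0.319). In this fraction 21 of 27 cell cycle genes, 4 of 10 double-positive, 1 of 10 mature single-positive and 2 of 12 T-cell identity genes were higher and none was lower, and their part in these values was not tested.

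**Figure D4:**
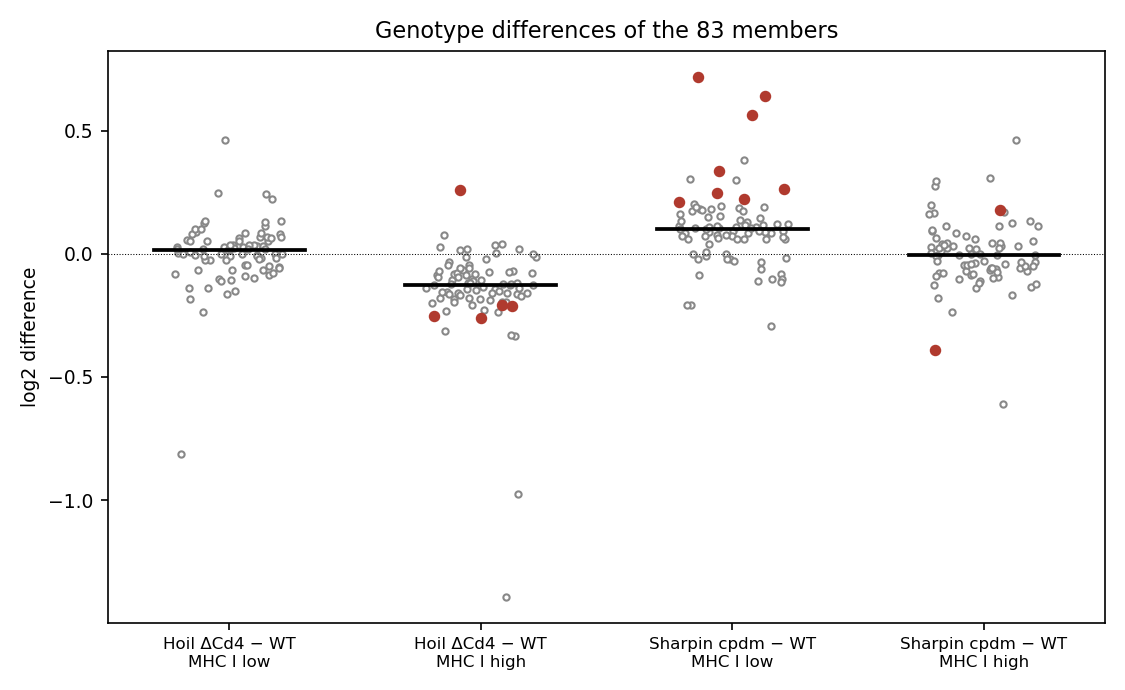
log2 difference of each of the 83 members between a mutant and WT (y axis) in each fraction (x axis). Red points passed an adjusted p of 0.05, open grey points did not, the black bar is the median and points are spread sideways for legibility. Medians are 0.02, −0.12, 0.10 and −0.003 from left to right, with 0, 5, 8 and 2 members called.

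The mutants were also compared with each other, in comparisons that share the mutant samples with those above. In MHC I low thymocytes 8 members were lower in Hoil ΔCd4 than in Sharpin cpdm mice and 0 higher (4.36% and 5.12% of all genes, 9.48% in either direction), with a median of −0.09. Rpl15 differed most clearly, at 28.83, 29.67 and 34.94 CPM in Hoil ΔCd4 and 44.33, 41.84 and 40.74 CPM in Sharpin cpdm samples (−0.44 ± 0.09, adjusted p = 0.00246). Rpl7a (−0.24, adjusted p = 0.011) and Rps2 (−0.26, adjusted p = 0.013) followed. The number called was 3 without Hoil ΔCd4 mouse 2 or mouse 3 and 2 without Sharpin cpdm mouse 3. In MHC I high thymocytes 4 members were lower (Rpl7a, Rpl13a, Rps16 and Rpl18) and Rps3a1 was higher, 6.02% of members against 6.73% of all genes (3.71% higher and 3.02% lower). Rpl7a differed by −0.26 ± 0.05 (adjusted p = 0.0033), Rpl13a by −0.26 ± 0.06 (adjusted p = 0.00569) and Rps16 by −0.30 ± 0.07 (adjusted p = 0.00921), all kept in 18 of 18 alternatives. The Rps3a1 difference of 0.25 ± 0.08 (adjusted p = 0.0461) was kept in 5 of 18. Mature single-positive markers were lower in Hoil ΔCd4 than in Sharpin cpdm mice in 6 of 10 cases in MHC I low and 4 of 10 in MHC I high thymocytes, and 10 of 27 cell cycle genes were higher in MHC I low. Their part was not tested.

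The change between fractions was compared between genotypes directly, as a difference of log2 changes, and this test called 1 member in all. For Hoil ΔCd4 against WT, 78 of 83 members had a less positive or more negative change (median difference −0.13). limma, edgeR and DESeq2 each called 0 members, and limma called 0.398% of all genes (0.297% higher and 0.102% lower), while 17 members had an unadjusted p under 0.05. The smallest p was that of Rpl24, of the large subunit (−0.48 ± 0.15, adjusted p = 0.183). For Sharpin cpdm against WT, 69 of 83 members had a less positive or more negative change (median difference −0.12) and 1 was called (1.2% of members, against 3.13% of all genes, with 2.2% higher and 0.93% lower). With the mouse as a fixed replicate block 2 members were called, Rps14 among them, and with no replicate block 0 were. Both comparisons use the same WT samples.

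**Figure D5:**
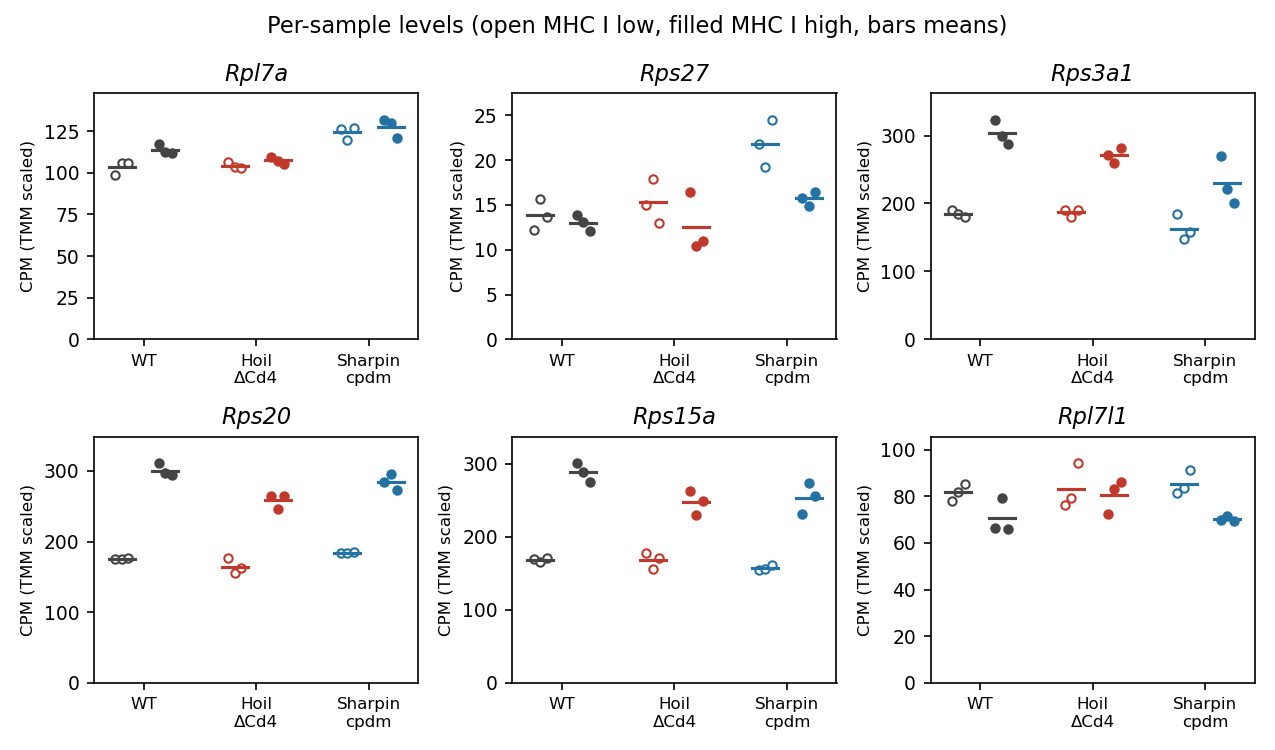
TMM-scaled CPM (y axis, from 0) in each sample for 6 members, by genotype (x axis). Open points are MHC I low, filled points MHC I high samples and bars are means (n = 3). Rpl7a lies at 119.7 CPM or more in every Sharpin cpdm sample, and the Hoil ΔCd4 MHC I high samples of Rps20 lie below those of WT.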

How the data were processed

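RNA of sorted CD69+ MHC I low and MHC I high thymocytes was sequenced single-end. The authors aligned reads to mm10 with subread, and featureCounts assigned them to the genes of its inbuilt RefSeq annotation. The deposited values are whole-number counts without normalization, 1 column per sample. Versions, strand and settings for reads with several matches are not given in the sources used here. Of 27179 genes, 25275 matched RefSeq (GRCm38.p6) by Entrez GeneID, and 1904 with 0.655% of counts did not.

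The analysis followed the methods of the study. A gene entered the fit when 3 or more samples had 0.5 CPM or more, without chromosome Y, Xist, predicted and unnamed genes. log2 CPM (TMM, prior count of 1) were fitted with limma in 1 model of 6 groups with sample quality weights (0.6282 to 2.423), the mouse as a random block (correlation 0.224) and a trended, robust empirical Bayes step. p-values were adjusted over 12798 genes by Benjamini and Hochberg. Per-sample CPM are TMM-scaled. Totals of 10577966 to 16266128 counts set the precision, and intervals cover counting error only. Replicates of a group differed by more than sampling noise (chi-square per degree of freedom 3.952 to 14.12). The labels tie the 2 fractions of a mouse to 1 animal, and their deviations from group means correlated across genes in 9 of 9 mice (r from 0.0702 to 0.256).

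Members named are the 3 with the smallest p in each direction among those called per comparison, with a fixed set (Rpl22, Rpl22l1, Rps3, Rps6, Rpl5, Rpl11, Rpl23, the X-linked members, paralogs and non-ribosomal members), the 5 highest and lowest per length, and for other lists up to 2 genes per direction. A few genes that this rule picks are not reported here. Further genes named in counts were chosen after their values were seen. The members and lists were chosen with earlier results of these data known. Alternatives were edgeR, DESeq2, library-size scaling, scaling without ribosomal protein genes, no low-count filter, no weights, no or a fixed mouse block, Xist as a covariate, pseudogene counts added to members, and each of 9 mice left out. Software was DESeq2 1.42.0, edgeR 4.0.16, limma 3.58.1 and statmod 1.5.0 under R 4.3.3, and the fits were tested on simulated data.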

Additional observations from a re-analysis of the deposited data

Results flagged for a closer look

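Count rows named as pseudogenes of ribosomal proteins, of which 24 were among all genes tested and none was a member, carried signal: of 35 such rows, 24 had at least 3 counts in every sample. They took 0.02537 to 0.03009% of counts in MHC I low and 0.03857 to 0.04642% in MHC I high samples, and between the fractions of WT mice 22 of 24 tested rows were called higher and 0 lower (median 0.73), where 27.5% of all genes were called higher. In Hoil ΔCd4 mice 13 were called higher and 0 lower (median 0.52; 23.5% of all genes higher), and in Sharpin cpdm mice 18 were called higher and 1, Rps4l, lower (median 0.57; 27.2% of all genes higher). Rps15a-ps5 had a mean of 56.11 CPM and a log2 change of 0.97 in WT (adjusted p = 2.93e-13), Rpl6l a mean of 47.16 CPM and a change of 0.57, and Rpl36-ps12 a mean of 41.23 CPM and a change of 0.45. Reads of such rows and of the parent genes cannot be told apart with certainty.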

How the results depend on the processing

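Of 1087 recomputed values of 58 named member results 1020 kept their call, 67 lost it and 0 reversed, and 42 of the 58 kept it throughout. The number of members called between fractions stayed at 63 to 68 in WT, 52 to 63 in Hoil ΔCd4 and 57 to 70 in Sharpin cpdm mice. For Hoil ΔCd4 against WT in MHC I high thymocytes (5 called), 2 were called with no filter, 3 with no quality weights and 3 with Xist as a covariate. For Sharpin cpdm against WT in MHC I high (2 called), 1 was called with edgeR, 1 with DESeq2 and 1 with no weights. For Hoil ΔCd4 against Sharpin cpdm in MHC I high (5 called), 3 were called with edgeR, DESeq2, no filter or no weights and 10 with Xist as a covariate. For the difference in fraction change of Sharpin cpdm and WT (1 called), 0 were called with edgeR, DESeq2, library-size scaling, no filter, no replicate block or Xist, and 2 with the mouse as a fixed replicate block. The replicate block changed no other count of members by over 1.5 times. The cause was not tested.

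Leaving out each mouse in turn gave 0 to 8 members for Hoil ΔCd4 against WT in MHC I high (median −0.199, without WT mouse 3, to −0.118), 4 to 9 for Sharpin cpdm against WT in MHC I low, 1 to 4 in MHC I high (median −0.067 without WT mouse 3, −0.065 without Sharpin cpdm mouse 2, and up to 0.007), 2 to 8 for Hoil ΔCd4 against Sharpin cpdm in MHC I low and 3 to 5 in MHC I high. Medians between fractions ranged from 0.469 to 0.559 in WT (highest without mouse 3), from 0.329 to 0.400 for Hoil ΔCd4 (highest without mouse 1) and from 0.317 to 0.401 for Sharpin cpdm mice (lowest without mouse 2). The median difference in fraction change ranged from −0.202 (without WT mouse 3) to −0.101 for Hoil ΔCd4 and from −0.176 (without Sharpin cpdm mouse 2; −0.172 without WT mouse 3) to −0.093 for Sharpin cpdm mice, where the count ranged from 0 to 1. Low members are limited by depth, Rpl39 having 1 to 11 counts per library.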
